A study of Homo sapiens with 12 samples.

Results

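BE(2)-C cells, an established line from a human neuroblastoma with an amplified MYCN gene, were compared after transfection with a pool of siRNAs specific for IGF2BP1 (siI1) or with a control siRNA (siC). The comparison rests on 6 of the 12 libraries of the series, 3 per siRNA, and the other 6 libraries, from Hep-G2 cells, were normalised on their own and were not compared with them. Every gene with an FPKM (fragments per kilobase of gene, scaled to library size) of 0.1 or more in 3 or more of the BE(2)-C libraries was included, which left 18656 of the 58174 listed genes. Both groups received siRNA at 25 nM and were harvested after 72 h, strand-specific libraries were made from poly-A RNA, and the study describes the 3 libraries of each siRNA as biological replicates. The question asked was which pathways and which neuronal functions moved with IGF2BP1 depletion in these neuroblastoma cells. The siC libraries held 14662575, 12852988 and 13872286 reads on genes, and the siI1 libraries held 15721210, 13920803 and 13649325. The first principal component of the tested genes carried 37.3% of the variance and separated the groups, with siC libraries between -42.49 and -35.08 and siI1 libraries between 37.04 and 40.41. The second component, with 17.1%, set siC replicate 2 apart at -52.18, while the other 5 libraries lay between -9.2 and 28.81.

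IGF2BP1 is an oncofetal RNA-binding protein that is abundant in embryonic tissues, is silenced in most adult cells and returns in many tumours. It associates with messenger RNAs, stabilises a part of them and shields them from microRNA-directed decay. Neuroblastoma arises from sympathoadrenal precursors of the neural crest, and its cells keep a noradrenergic programme of transcription factors, catecholamine enzymes and secretory peptides beside features of immature neurons. IGF2BP1 itself, on the plus strand of chr17:48997385-49056145 in hg38, was downregulated in all 3 siI1 libraries (log2 fold change -2.11, adjusted p = 1.48e-05, limma), which matched the labels. Its paralogue IGF2BP3 was upregulated (log2 fold change 0.34, adjusted p = 0.00418, limma), and IGF2BP2 did not pass the filter on low values.

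The markers fixed for the labelled cell type were present. All 13 genes of the neuroblast and sympathetic neuron markers were tested, 5 of them were downregulated and 4 upregulated, and their FPKM summed to 4161, 3947 and 3946 with siC and 4465, 4332 and 4406 with siI1, with MYCN as the most abundant. MYCN itself had FPKM values of 1688, 1620 and 1671 with siC and 1880, 1855 and 1955 with siI1 and did not pass the test (log2 fold change 0.19, adjusted p = 0.0566, limma), although 5 of the alternative settings called it upregulated. Of the 12 Schwann cell and glia markers, 3 passed the filter and none was called, and MBP, FOXD3, CDH19 and OLIG1 were listed at 0 in all 6 libraries. Among the hepatocyte and hepatoblastoma markers, AFP and HNF4A were listed at 0 throughout. None of the 5 endothelial markers and 1 of the 8 haematopoietic markers passed the filter. That gene was CD14, a receptor for bacterial lipopolysaccharide that was downregulated (log2 fold change -1.20, adjusted p = 0.0237, limma) and lost its call without siC replicate 1 or 3 or siI1 replicate 1 or 3, while the pan-leukocyte gene PTPRC was listed at 0 in every library. Of the 7 epithelial markers, 4 were tested and none was called. Of 11 tested mesenchymal and fibroblast markers, 5 (DCN, LUM, PDGFRA, TWIST1 and FN1) were upregulated, or 45.5% against 13.3% of all tested genes. ACTA2 was downregulated, and the median log2 fold change was 0.50. PDGFRA had FPKM values of 0.0787, 0.0802 and 0.0441 with siC and 0.359, 0.480 and 0.370 with siI1. It passed the filter only through its siI1 libraries, so its call gives no support of its own. ACTA2 kept its call only without siI1 replicate 2. The FPKM of these mesenchymal markers summed to 188, 178 and 181 with siC and 214, 218 and 207 with siI1. THY1 was the most abundant at a mean FPKM of 97.9, COL1A1 and COL3A1 were not called, and PRRX1 lay at 0.0172 or below. In these bulk libraries fewer cells of a type and less RNA per cell cannot be told apart, and the part of these markers in the results that follow was not tested.

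Upon IGF2BP1 knockdown, 2763 genes (14.8% of those tested) were downregulated and 2489 (13.3%) upregulated at an adjusted p below 0.05 (limma, Benjamini-Hochberg), together 5252 genes or 28.2%. Fold changes were taken after adding 0.1 to each FPKM, so those of genes with low values come out too small, and the median log2 fold change was 0.02 over all tested genes, -0.47 over the downregulated and 0.54 over the upregulated genes. At least 2-fold changes were less frequent among downregulated than among upregulated genes, with 312 and 561 genes. The share of downregulated genes was larger at higher expression, from 3.3% at a mean FPKM below 1 to 15.3% between 1 and 10, 31.8% between 10 and 100 and 29.2% from 100 upwards, whereas the upregulated share was 7.57%, 16.6%, 15.8% and 19.5%. Lists of highly expressed genes have to be read against these shares as well as against those of all genes. Most groups of neuronal genes contained members that moved in opposite directions, whereas genes of cell division, sterol synthesis, mitochondria and the proteasome were more often downregulated than upregulated.

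**Figure D1:**
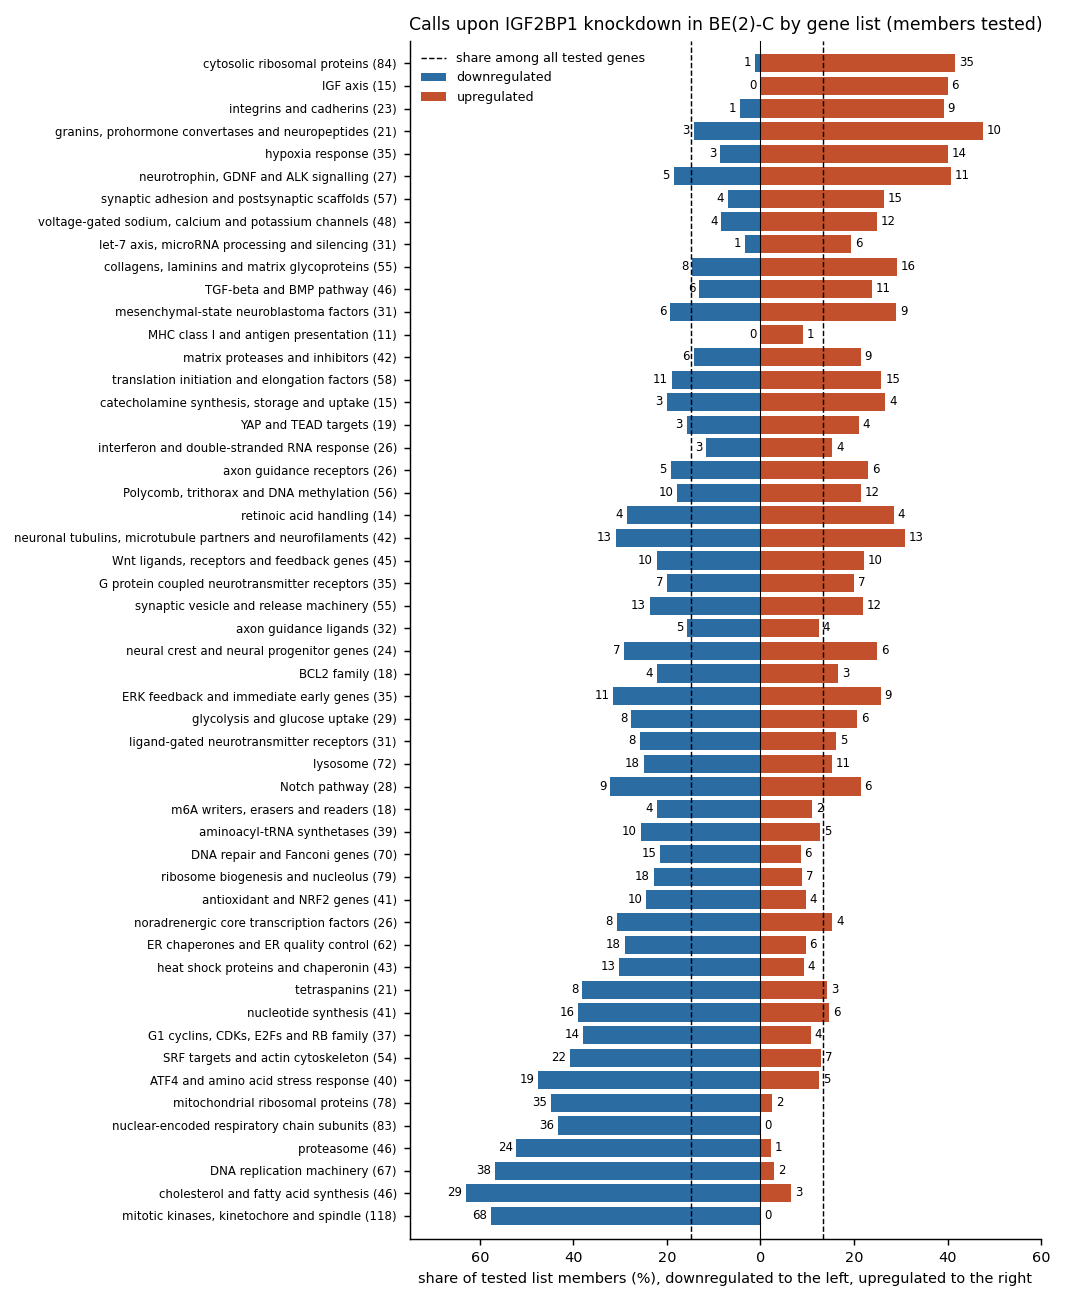
Share of the tested members of 52 gene lists that was downregulated (left, blue) or upregulated (right, orange-red) upon IGF2BP1 knockdown, in percent, with the number of genes at each bar and the number tested in parentheses. The dashed lines mark the shares among all tested genes, 14.8% and 13.3%. Cytosolic ribosomal proteins, the IGF axis and integrins and cadherins stand at the top with more upregulated than downregulated members, and mitotic, sterol synthesis and DNA replication genes at the bottom with mainly downregulated members.

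The transcription factors of noradrenergic identity included genes of both directions. Of 26 tested genes, 8 were downregulated and 4 upregulated, with a median log2 fold change of 0.02 against 0.02 over all tested genes. The shares of 30.8% and 15.4% do not exceed those of genes with a mean FPKM between 10 and 100 (31.8% and 15.8%). HAND2, which directs sympathetic neuron development, had FPKM values of 291, 290 and 274 with siC and 174, 172 and 168 with siI1 (log2 fold change -0.73, adjusted p = 0.000169, limma). The groups did not overlap for this gene. Further downregulated members were INSM1, TLX2, PHOX2A, TBX2 and TBX3, with log2 fold changes from -1.31 (INSM1) to -0.30 (TBX3). The upregulated members were TFAP2B, SOX4, LMO3 and EYA1. TFAP2B, a neural crest factor linked to noradrenergic differentiation, had FPKM values of 18.0, 20.3 and 19.9 with siC and 40.4, 38.7 and 41.8 with siI1 (log2 fold change 1.05, adjusted p = 0.000152, limma), so that all siI1 libraries lay above all siC libraries. SOX4, which acts in immature neurons, was upregulated by a smaller amount (log2 fold change 0.51, adjusted p = 0.000477, limma). GATA2, GATA3, ISL1 and HAND1 did not pass the test, with log2 fold changes of 0.07, 0.02, 0.14 and 0.05.

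Genes of the mesenchymal neuroblastoma state, an alternative identity with features of neural crest-derived mesenchyme, showed 9 upregulated and 6 downregulated members among 31 tested, with a median of 0.06. The 9 upregulated genes numbered 5 without siI1 replicate 3. FN1, which encodes fibronectin, had an FPKM of 0.330, 0.365 and 0.397 with siC and 1.93, 1.88 and 1.77 with siI1 (log2 fold change 2.08, adjusted p = 0.000276, limma). This is a low level in both groups, and the groups did not overlap. HEY1, a target of Notch receptors, was upregulated (log2 fold change 0.85, adjusted p = 0.000245, limma). In the opposite direction moved JUN and ATF3, which encode AP-1 family factors. JUN had FPKM values of 36.8, 38.1 and 37.2 with siC and 23.1, 22.7 and 22.1 with siI1 (log2 fold change -0.72, adjusted p = 0.000152, limma) and ATF3 of 5.07, 4.94 and 4.90 with siC and 2.47, 2.64 and 2.25 with siI1 (log2 fold change -0.99, adjusted p = 0.000463, limma), with no overlap of the groups in either gene. VIM and CD44 were not called, with log2 fold changes of -0.04 and 0.31.

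Neural crest and neural progenitor genes included 7 downregulated and 6 upregulated members of 24 tested (median -0.02, a sign that turns with the scaling), and these counts were 4 and 3 without siI1 replicate 3. Beside NES, the downregulated genes included HES6, DLL3 and SOX9. HES6, a relative of the Notch effectors that promotes neuronal differentiation, fell from 28.0, 25.2 and 25.4 in the siC libraries to 10.9, 11.8 and 14.4 in the siI1 libraries (log2 fold change -1.09, adjusted p = 0.000682, limma). SOX2, a factor of neural stem cells, had FPKM values of 0.693, 0.528 and 0.370 with siC and 1.65, 1.52 and 1.49 with siI1 (log2 fold change 1.42, adjusted p = 0.00368, limma) on 13 to 64 reads per library. Its siI1 libraries lay above its siC libraries, at low levels throughout.

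Synthesis and handling of catecholamines did not move as a unit. TH catalyses the rate-limiting step of the pathway, DDC the next step, and DBH makes noradrenaline from dopamine. Of 15 tested genes, 4 were upregulated (TH, GCH1, SLC6A2 and SLC18A1) and 3 downregulated (SPR, DBH and QDPR), with a median of 0.04. TH had an FPKM of 34.5, 27.0 and 28.9 with siC and 48.1, 46.5 and 43.2 with siI1 (log2 fold change 0.61, adjusted p = 0.00369, limma), without overlap of the groups. GCH1, the entry enzyme for the TH cofactor tetrahydrobiopterin, had FPKM values of 12.3, 12.3 and 15.9 with siC and 22.6, 23.4 and 22.9 with siI1 (log2 fold change 0.77, adjusted p = 0.00216, limma). SPR and QDPR, which complete and recycle the same cofactor, fell (log2 fold change -0.74, adjusted p = 0.000333, limma for SPR), and QDPR lost its call without siC replicate 2, siI1 replicate 2 or siI1 replicate 3. SLC6A2, the noradrenaline transporter, had FPKM values of 91.2, 90.9 and 92.9 with siC and 120, 123.4 and 122 with siI1 (log2 fold change 0.41, adjusted p = 0.000501, limma). SLC18A1, a vesicular monoamine transporter, was upregulated as well (log2 fold change 0.36, adjusted p = 0.00611, limma). DBH had FPKM values of 307, 253 and 270 with siC and 222, 213 and 203 with siI1, lower in every siI1 library (log2 fold change -0.37, adjusted p = 0.0128, limma), but its adjusted p from limma was 0.0526 without siI1 replicate 3. DDC, SLC18A2 and MAOA were not called, with log2 fold changes of 0.10, -0.21 and -0.39.

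Secretory granule proteins and neuropeptides were more often upregulated. Granins form the cores of dense-core vesicles, prohormone convertases cleave peptide precursors, and the peptides are released together with noradrenaline. Of 21 tested genes, 10 were upregulated (47.6% against 13.3% of all tested genes) and 3 downregulated, and the median was 0.28. CHGB, a granin, had FPKM values of 152, 151 and 149 with siC and 276, 263 and 262 with siI1 (log2 fold change 0.82, adjusted p = 0.000127, limma). CHGA, the most abundant member, was upregulated by less (log2 fold change 0.39, adjusted p = 0.00792, limma). SCG5, a chaperone of prohormone convertase 2, had FPKM values of 7.49, 7.92 and 7.23 with siC and 18.9, 16.8 and 17.2 with siI1 (log2 fold change 1.21, adjusted p = 0.000139, limma). In these 3 genes the groups did not overlap. The peptide gene with the largest increase was NPY, named after its values were seen, with an FPKM of 35.0, 28.2 and 33.8 with siC and 107, 119 and 99.6 with siI1 (log2 fold change 1.74, adjusted p = 0.000152, limma). CARTPT, VIP and ADCYAP1, all peptide precursors, were also upregulated, with log2 fold changes from 0.55 (ADCYAP1) to 1.52 (CARTPT), together with CADPS, which primes dense-core vesicles for release. Galanin went the other way. GAL had an FPKM of 299, 292 and 278 with siC and 151, 142 and 142 with siI1 (log2 fold change -0.997, adjusted p = 0.000122, limma), and each siI1 value was close to 50% of the siC values. VGF, another granule protein, was downregulated (log2 fold change -0.56, adjusted p = 0.00731, limma), while the convertase PCSK1 and the processing enzymes CPE and PAM were not called.

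**Figure D2:**
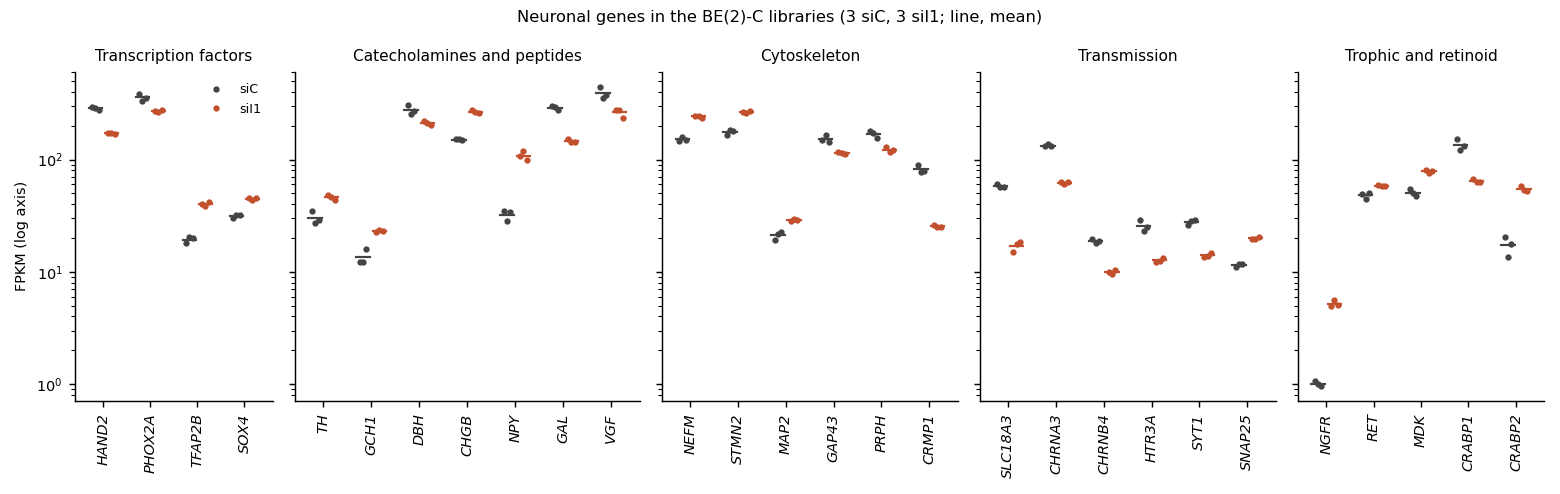
FPKM (log axis) of selected neuronal genes in each of the 3 siC (grey) and 3 siI1 (orange-red) libraries, with a line at each group mean. TFAP2B, NPY and NGFR lie higher and HAND2, GAL, CRMP1, SLC18A3 and CHRNA3 lower in all siI1 libraries, without overlap of the groups.

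The neuronal cytoskeleton showed as many upregulated as downregulated genes, 13 and 13 of 42 tested, with a median of -0.02 whose sign turns with the scaling of the libraries. The shares of 31% upregulated and 31% downregulated lie above those of all tested genes, but the downregulated share does not exceed the 31.8% of genes with a mean FPKM between 10 and 100. CRMP1, a mediator of semaphorin signals that bundles actin and microtubules in growth cones, had FPKM values of 88.8, 78.2 and 78.9 with siC and 26.0, 25.3 and 24.8 with siI1 (log2 fold change -1.68, adjusted p = 3.32e-05, limma). STMN4, a stathmin that binds free tubulin, had FPKM values of 4.50, 5.19 and 4.56 with siC and 1.33, 1.503 and 1.40 with siI1 (log2 fold change -1.68, adjusted p = 0.000165, limma). Both genes stood near 30% of their siC level in every siI1 library. Further downregulated members were the growth cone proteins GAP43 and BASP1, the peripheral neuron filament PRPH, the kinesin KIF1A, the RNA-binding protein ELAVL3, DPYSL5 and STMN1. NEFM, the medium neurofilament, rose from 148, 160 and 148 in the siC libraries to 246, 246 and 236 in the siI1 libraries (log2 fold change 0.68, adjusted p = 0.000276, limma). STMN2, a marker of growing axons, had FPKM values of 166, 184 and 180 with siC and 265, 259 and 270 with siI1 (log2 fold change 0.58, adjusted p = 0.000494, limma). MAP2, MAP1B, MAP6 and DCX, which stabilise or coat microtubules, were upregulated with log2 fold changes from 0.46 (MAP2) to 0.60 (MAP6). KIF5A, NEFL, STMN3, DPYSL3 and TUBB4A were upregulated as well. Tubulin genes share reads with near-identical copies, so the value of TUBB4A is uncertain.

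Axon guidance depends on secreted or membrane-bound cues (semaphorins, ephrins, slits and netrins) and on their receptors. Among the cues, 5 of 32 tested genes were downregulated and 4 upregulated (median -0.10), which is near the background shares, and both counts rest on single libraries. The median was -0.018 without the filter and between -0.125 and -0.035 on leaving out 1 library. The downregulated number was 2 without siI1 replicate 1, 2 or 3 and 3 without siC replicate 1, 2 or 3, and the upregulated number was 2 without siC replicate 1, 2 or 3 or siI1 replicate 2. Among the receptors, 5 of 26 were downregulated and 6 upregulated (median -0.09, or -0.21 without siC replicate 2). The receptor genes with the smallest p were NRP2 and PLXNA2, which together form receptors for class 3 semaphorins. NRP2 had FPKM values of 6.69, 6.19 and 6.78 with siC and 2.13, 2.28 and 2.12 with siI1 (log2 fold change -1.55, adjusted p = 0.000121, limma) and PLXNA2 fell as well (log2 fold change -0.997, adjusted p = 0.000318, limma). PLXNA4, PLXND1 and the netrin receptor UNC5A were also downregulated. DSCAML1, a homophilic adhesion molecule of neurites, had FPKM values of 0.327, 0.255 and 0.305 with siC and 0.772, 0.865 and 0.962 with siI1 (log2 fold change 1.29, adjusted p = 0.00363, limma). ROBO2, a receptor for slits, was upregulated too (log2 fold change 0.79, adjusted p = 0.00491, limma), and so were PLXNB1, EPHB3 and UNC5B, although UNC5B lost its call without siC replicate 2 or siI1 replicate 1, 2 or 3.

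Vesicle release genes were divided in a similar way, with 13 downregulated and 12 upregulated of 55 tested and a median of -0.02 whose sign turns with the scaling. SLC18A3, which loads acetylcholine into vesicles and lies at chr10:49610310-49612720 on the plus strand, had FPKM values of 60.7, 56.9 and 56.9 with siC and 15.1, 17.8 and 18.4 with siI1 (log2 fold change -1.76, adjusted p = 8.57e-05, limma). No other member of this list had a smaller p. RIMS3, a protein of the active zone, had FPKM values of 26.8, 23.6 and 26.6 with siC and 12.9, 12.4 and 12.6 with siI1 (log2 fold change -1.02, adjusted p = 0.000165, limma). The synaptotagmin genes SYT1 and SYT11 were downregulated with log2 fold changes of -0.97 and -0.27, as were SYNGR3, SNCB, SYN2 and SYPL1. SNAP25, a core protein of the fusion complex, had FPKM values of 11.0, 11.6 and 11.7 with siC and 19.6, 19.8 and 20.6 with siI1 (log2 fold change 0.80, adjusted p = 0.000167, limma). SYNJ1, which uncoats endocytosed vesicles, had FPKM values of 2.04, 2.34 and 2.45 with siC and 4.50, 4.43 and 4.63 with siI1 (log2 fold change 0.96, adjusted p = 0.000667, limma). In both genes every siI1 library lay above every siC library. DNM1 and SNAP91, which act in vesicle endocytosis, NAPB, which helps to take fusion complexes apart, and SYT5, UNC13A and RAB27B were also upregulated. SYP, SYN1, STX1A and VAMP2 were not called.

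Adhesion molecules of the synapse were mostly upregulated where they were called at all. Of 57 tested genes, 15 rose (26.3%) and 4 fell (7.02%), with a median of 0.10. SLITRK6, which promotes synapse formation and neurite growth, had FPKM values of 0.306, 0.343 and 0.298 with siC and 1.199, 1.41 and 1.57 with siI1 (log2 fold change 1.84, adjusted p = 0.000694, limma). CNTN4, an axonal immunoglobulin protein, had FPKM values of 1.07, 1.07 and 1.12 with siC and 2.52, 2.85 and 2.76 with siI1 (log2 fold change 1.24, adjusted p = 0.000468, limma). Both genes were low but without overlap of the groups. NLGN3, a postsynaptic neuroligin, was upregulated with a log2 fold change of 1.62. Further upregulated members were NCAM2, SHANK1, CNTNAP2, CNTN1, LRRTM2 and NRCAM. PCDH19, LRRTM1, APBA1 and L1CAM were downregulated. L1CAM, the most abundant of all list members, had FPKM values of 148, 122.9 and 137 with siC and 110, 112 and 107 with siI1 (log2 fold change -0.31, adjusted p = 0.0176, limma), and lost its call without siC replicate 3, siI1 replicate 1 or siI1 replicate 3.

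Ion channels that open with voltage set the excitability of neurons. Of 48 tested channel genes, 12 were upregulated (25%) and 4 downregulated (8.33%), with a median of 0.20. The downregulated number was 0 without siC replicate 2 and 1 without siC replicate 3 or any of the siI1 replicates. CACNG4, an auxiliary subunit of calcium channels and glutamate receptors, had FPKM values of 24.6, 22.3 and 22.8 with siC and 40.4, 40.5 and 38.7 with siI1 (log2 fold change 0.78, adjusted p = 0.000211, limma). CACNA2D2, a calcium channel subunit that traffics the pore to the membrane, had FPKM values of 20.1, 18.7 and 19.1 with siC and 28.3, 28.6 and 28.5 with siI1 (log2 fold change 0.56, adjusted p = 0.000334, limma). Its relative CACNA2D1 was upregulated by more (log2 fold change 1.10, adjusted p = 0.00087, limma), without overlap in any of these 3 genes. KCNH2, the potassium channel that repolarises the membrane in neuroblastoma cells, was the most abundant member and rose from 62.7, 54.8 and 57.9 in the siC libraries to 79.6, 79.8 and 79.0 in the siI1 libraries (log2 fold change 0.44, adjusted p = 0.00167, limma). Further upregulated potassium channel genes were KCNH5, KCND1, KCNG1 and KCNAB1. The sodium channel genes SCN1A, SCN3A, SCN8A and SCN9A were not called.

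Receptors that open upon binding a transmitter went in both directions, with 8 downregulated and 5 upregulated of 31 tested (median -0.10), and the 5 upregulated genes numbered 3 without siI1 replicate 1 or 2. CHRNA3 and CHRNB4 encode the main nicotinic acetylcholine receptor of sympathetic ganglia. CHRNA3, at chr15:78593052-78621295 on the minus strand, had FPKM values of 132, 136 and 131 with siC and 62.7, 60.8 and 63.1 with siI1 (log2 fold change -1.10, adjusted p = 3.48e-05, limma). CHRNB4, at chr15:78624111-78727754 on the same strand, had FPKM values of 19.6, 18.1 and 18.7 with siC and 10.1, 9.61 and 10.3 with siI1 (log2 fold change -0.91, adjusted p = 0.000165, limma). CHRNA5, which joins this receptor as an accessory subunit, was also downregulated (log2 fold change -0.62, adjusted p = 0.00101, limma). CHRNA5 overlaps CHRNA3 on the opposite strand, and the files do not state whether reads were counted by strand, so both values are uncertain. AC022748.2 overlaps CHRNB4 on the opposite strand, so the value of CHRNB4 is uncertain as well. Every siI1 value of CHRNA3 lay between 60.8 and 63.1, below every siC value. HTR3A and HTR3B, the serotonin-gated channel subunits, the GABA receptor subunit GABRQ and the kainate receptor subunit GRIK3 were downregulated too, with log2 fold changes from -1.27 (HTR3B) to -0.77 (GRIK3). P2RX6 and P2RX3, channels gated by extracellular ATP, were upregulated. P2RX6 had FPKM values of 2.12, 1.93 and 1.39 with siC and 7.29, 6.21 and 6.39 with siI1 (log2 fold change 1.83, adjusted p = 0.00047, limma), and P2RX3 0.986, 1.34 and 1.04 with siC and 3.09, 2.81 and 2.59 with siI1 (log2 fold change 1.27, adjusted p = 0.0013, limma). GRIK2 was upregulated as well, while CHRNA7 and CHRNB2 were not called.

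Transmitter receptors coupled to G proteins were balanced, with 7 downregulated and 7 upregulated of 35 tested (median -0.13, a sign that turns with a filter at FPKM 1), and the downregulated number was 4 without siI1 replicate 2. On leaving out 1 library the median lay between -0.153 and -0.038. ADRA2C, an inhibitory autoreceptor for noradrenaline, had FPKM values of 32.5, 29.7 and 30.1 with siC and 11.7, 12.9 and 14.3 with siI1 (log2 fold change -1.24, adjusted p = 0.0002, limma). CHRM1, a muscarinic acetylcholine receptor, had FPKM values of 8.66, 7.46 and 7.63 with siC and 3.36, 2.96 and 3.54 with siI1 (log2 fold change -1.24, adjusted p = 0.000318, limma). The siI1 values of both genes were below 50% of the siC mean. ADRA2A, the paralogue of ADRA2C, rose (log2 fold change 0.51, adjusted p = 0.00185, limma), and so did the serotonin receptor HTR1E (log2 fold change 1.34, adjusted p = 0.000662, limma), CHRM2, OPRM1, P2RY6 and P2RY11. HRH3 and OPRD1 were downregulated as well.

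Trophic signalling through neurotrophins, the GDNF family and ALK maintains sympathetic neurons and drives part of the neuroblastomas. Of 27 tested genes, 11 were upregulated (40.7%) and 5 downregulated, with a median of 0.16, and the downregulated number was 3 without siC replicate 3, siI1 replicate 2 or siI1 replicate 3. The median was 0.089 without siI1 replicate 2, 0.053 without the filter and 0.255 with a filter at FPKM 1. NGFR, the low-affinity neurotrophin receptor, at chr17:49495293-49515008 on the plus strand, had FPKM values of 1.07, 0.996 and 0.965 with siC and 4.94, 5.56 and 5.03 with siI1 (log2 fold change 2.25, adjusted p = 8.46e-05, limma) on 53 to 326 reads per library. Its siI1 values were about 5 times its siC values. The upregulated receptors and adaptors further included ALK (log2 fold change 0.68, adjusted p = 0.00294, limma), RET, GFRA2, SHC1 and KIDINS220. Among ligands, midkine (MDK), a heparin-binding factor, had FPKM values of 54.1, 50.4 and 47.2 with siC and 80.5, 75.5 and 79.1 with siI1 (log2 fold change 0.63, adjusted p = 0.00061, limma), and GDNF was upregulated as well. NRTN, a GDNF family ligand, fell from 2.76, 1.62 and 2.90 in the siC libraries to 0.758, 0.319 and 0.519 in the siI1 libraries (log2 fold change -2.02, adjusted p = 0.00451, limma), but it was counted on only 5 to 45 reads per library. LTK, the close relative of ALK, had FPKM values of 9.001, 7.38 and 7.72 with siC and 3.41, 3.89 and 4.93 with siI1 (log2 fold change -0.97, adjusted p = 0.00319, limma). The adaptor gene SHC3 was downregulated as well. PTN, the most abundant gene of the list, was not called, with a log2 fold change of 0.05.

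Retinoic acid makes neuroblastoma cells differentiate, and its cellular binding proteins moved in opposite directions. CRABP1, at chr15:78340353-78348225 on the plus strand, had FPKM values of 152, 122 and 131 with siC and 67.4, 63.7 and 63.2 with siI1 (log2 fold change -1.05, adjusted p = 0.000318, limma), and as AC011270.2 overlaps it on the opposite strand, its value is uncertain in the same way as those of CHRNA3 and CHRNA5. CRABP2, which delivers the acid to its nuclear receptors, lies at chr1:156699606-156705816 on the minus strand and had FPKM values of 20.4, 13.6 and 17.6 with siC and 57.8, 53.5 and 52.9 with siI1 (log2 fold change 1.68, adjusted p = 0.000381, limma). Of 14 tested genes, 4 were downregulated (with CRABP1 also RETSAT, RXRA and RARG) and 4 upregulated (among them CRABP2, RARA and RDH10), and the median was -0.09. On leaving out 1 library the median lay between -0.166 (without siC replicate 2) and -0.027. RARA, the retinoic acid receptor with the highest FPKM here, had FPKM values of 19.1, 16.4 and 16.9 with siC and 27.8, 27.5 and 27.8 with siI1 (log2 fold change 0.66, adjusted p = 0.000663, limma). RARG (adjusted p = 0.044, limma) lost its call without siC replicate 1, 2 or 3 or siI1 replicate 1 or 2. RDH10 (adjusted p = 0.0326, limma) lost its call without each of the 6 libraries in turn.

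Developmental signalling pathways contained genes of both directions. For Wnt, 10 genes were downregulated and 10 upregulated of 45 tested (median 0.02, a sign that turns without siC replicate 3 or siI1 replicate 2). DKK1, a secreted inhibitor of the pathway, had FPKM values of 24.4, 25.9 and 25.4 with siC and 15.0, 17.4 and 15.8 with siI1 (log2 fold change -0.65, adjusted p = 0.000694, limma), and DKK3 fell as well (log2 fold change -0.84, adjusted p = 0.000955, limma). LGR5, a receptor for R-spondins that amplifies Wnt signals, had FPKM values of 12.6, 13.6 and 13.7 with siC and 21.5, 21.1 and 22.6 with siI1 (log2 fold change 0.71, adjusted p = 0.000318, limma). For TGF-beta and BMP, 6 were downregulated and 11 upregulated of 46 (median 0.10). The upregulated number was 7 without siC replicate 1 or 2, 4 without siI1 replicate 1, 5 without siI1 replicate 2 and 6 without siI1 replicate 3, and the downregulated number was 3 without siC replicate 3 or siI1 replicate 2. BMP7, a ligand that acts on neural crest cells, had FPKM values of 7.20, 6.42 and 7.01 with siC and 2.69, 3.11 and 3.35 with siI1 (log2 fold change -1.15, adjusted p = 0.000462, limma), and TGFB1 was downregulated too (log2 fold change -0.55, adjusted p = 0.00199, limma). The groups did not overlap in these genes, and the ligand gene GDF11 was upregulated, so the ligands did not share a direction.

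In the Notch pathway, by which neighbouring progenitors restrain each other's differentiation, 9 genes were downregulated and 6 upregulated of 28 tested, with a median of -0.25, and the upregulated number was 3 without siI1 replicate 3. The median was -0.082 with an added constant of 1 and between -0.216 and -0.168 on leaving out 1 library. DLL3, an inhibitory ligand that is a marker of neuroendocrine tumours, had FPKM values of 33.5, 25.9 and 29.0 with siC and 16.2, 14.7 and 14.3 with siI1 (log2 fold change -0.95, adjusted p = 0.000867, limma). LFNG, which glycosylates Notch, and the ligand JAG2 fell with it, as did HES6, NRARP, RBPJ and APH1A, and APH1A lost its call without siC replicate 2 or siI1 replicate 2 or 3. ADAM17, which sheds the Notch ectodomain, rose (log2 fold change 0.54, adjusted p = 0.00468, limma), together with HEY1 and MAML3. Immediate early genes and feedback genes of ERK signalling went in both directions, with 11 downregulated and 9 upregulated of 35 (median -0.03, a sign that turns with the scaling). IER2, an immediate early gene, had FPKM values of 74.4, 73.8 and 65.0 with siC and 41.0, 38.8 and 38.8 with siI1 (log2 fold change -0.84, adjusted p = 0.000292, limma), and EGR1, JUN, JUND, ATF3, NR4A1 and IER5 were also downregulated. The ERK inhibitors SPRY4, SPRY2, SPRED1 and DUSP4 were upregulated, with SPRY4 FPKM values of 21.1, 20.2 and 21.8 with siC and 30.8, 30.1 and 30.8 with siI1 (log2 fold change 0.54, adjusted p = 0.000381, limma). The immediate early genes NR4A3, KLF2 and KLF10 were upregulated, so immediate early genes moved both ways.

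The extracellular matrix had 16 upregulated (29.1%) and 8 downregulated genes of 55 tested, with a median of 0.11 that was 0.04 without siI1 replicate 2. The downregulated number was 5 without siC replicate 1 or siI1 replicate 1, 4 without siC replicate 3 and 3 without siI1 replicate 2 or 3. FREM1, a basement membrane protein, had FPKM values of 0.207, 0.181 and 0.219 with siC and 1.17, 1.37 and 1.19 with siI1 (log2 fold change 2.15, adjusted p = 0.000463, limma). COL6A6, a chain of collagen VI, had FPKM values of 2.52, 2.67 and 3.08 with siC and 7.89, 8.01 and 8.28 with siI1 (log2 fold change 1.52, adjusted p = 0.000158, limma). FN1, LUM, DCN, FBN1, NID2, VCAN and LAMA4 were among the other upregulated members. These include 3 of the mesenchymal markers that moved with the siRNA. LAMA5, a laminin chain, and COL9A3 fell (log2 fold change -0.90, adjusted p = 0.00176, limma for LAMA5 and log2 fold change -0.98, adjusted p = 0.00285, limma for COL9A3). Of 42 matrix proteases and inhibitors, 9 were upregulated and 6 downregulated (median 0.04, a sign that turns without the filter or without siC replicate 2). MMP2, a gelatinase, had FPKM values of 166, 144 and 157 with siC and 245, 235 and 236 with siI1 (log2 fold change 0.62, adjusted p = 0.000756, limma), and the membrane protease MMP15 18.7, 17.6 and 17.4 with siC and 8.70, 9.49 and 9.14 with siI1 (log2 fold change -0.97, adjusted p = 0.000158, limma). SULF2, which removes sulfate groups from heparan sulfate, was downregulated (log2 fold change -0.79, adjusted p = 0.000152, limma).

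Integrins and cadherins, the receptors by which cells hold to matrix and to each other, were upregulated in 9 of 23 tested genes (39.1%) and downregulated in 1, with a median of 0.26. This median was 0.015 without the filter and 0.491 with a filter at FPKM 1. CDH2, the neural cadherin, had FPKM values of 30.4, 30.02 and 29.6 with siC and 42.8, 43.0 and 42.0 with siI1 (log2 fold change 0.51, adjusted p = 0.000285, limma). ITGB5, a partner of the alpha V chain in vitronectin receptors, had FPKM values of 22.1, 18.9 and 19.9 with siC and 34.3, 33.6 and 33.3 with siI1 (log2 fold change 0.73, adjusted p = 0.000449, limma), and ITGAV, ITGB1, ITGA1, CDH10, CDH18 and CDH24 rose as well. The exception was ITGA6, a laminin receptor chain with FPKM values of 1.52, 1.49 and 1.46 with siC and 0.713, 0.769 and 0.397 with siI1 (log2 fold change -1.17, adjusted p = 0.0106, limma). Tetraspanins, which organise such receptors in the membrane, were downregulated in 8 and upregulated in 3 of 21 (median -0.17). CD9 had the largest decrease of the list, with FPKM values of 47.5, 45.4 and 42.9 with siC and 7.79, 6.86 and 7.97 with siI1 (log2 fold change -2.57, adjusted p = 1.93e-05, limma). CD151, the partner of laminin-binding integrins, had FPKM values of 13.5, 13.2 and 12.9 with siC and 6.88, 6.58 and 6.60 with siI1 (log2 fold change -0.97, adjusted p = 0.000132, limma). TSPAN9 and TSPAN13 went up (log2 fold change 0.61, adjusted p = 0.000462, limma for TSPAN9), and CD63 and CD81 were not called.

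Actin and its regulators, many of them targets of the serum response factor SRF, were downregulated in 22 (40.7%) and upregulated in 7 of 54 tested genes. The median was -0.12, and the upregulated number was 4 without any siI1 replicate in turn. Among genes with a mean FPKM between 10 and 100, 31.8% were downregulated. TAGLN2, an actin-binding protein of the calponin family, had FPKM values of 128, 111 and 116 with siC and 47.8, 45.9 and 43.5 with siI1 (log2 fold change -1.37, adjusted p = 0.000112, limma). MYH9, the heavy chain of non-muscle myosin, had FPKM values of 43.1, 37.7 and 40.1 with siC and 20.1, 18.8 and 18.4 with siI1 (log2 fold change -1.07, adjusted p = 0.000162, limma). ACTB, the most abundant member, fell from 1281, 1118 and 1095 in the siC libraries to 922, 883 and 847 in the siI1 libraries (log2 fold change -0.40, adjusted p = 0.0104, limma). In these 3 genes the groups were apart in all libraries. SRF itself, its coactivator gene MKL1, the filamin gene FLNA, ZYX, LIMK1 and DIAPH1 were also downregulated. The slingshot phosphatase gene SSH1 went up (log2 fold change 0.48, adjusted p = 0.00673, limma). Targets of YAP and TEAD showed 3 downregulated and 4 upregulated of 19 (median 0.06). The downregulated number was 1 without each of the 6 libraries in turn, and the upregulated number was 2 without siC replicate 2 or siI1 replicate 1 or 3. Of these, NT5E, an enzyme that makes adenosine outside the cell, had FPKM values of 8.31, 7.99 and 8.31 with siC and 17.0, 15.2 and 17.4 with siI1 (log2 fold change 1.001, adjusted p = 0.0002, limma). In the insulin-like growth factor axis, 6 of 15 tested genes were upregulated and 0 downregulated (median 0.13). IGFBP5, a binding protein that holds the factors at the cell surface or in the matrix, had FPKM values of 16.8, 14.6 and 16.7 with siC and 32.8, 32.7 and 34.5 with siI1 (log2 fold change 1.05, adjusted p = 0.000169, limma), and IGF1R, IGFBP4, IGFBP7 and INSRR rose with it. IGF2, the messenger after which the protein family is named, was called as well (log2 fold change 0.32, adjusted p = 0.0319, limma) but lost the call without siC replicate 2 or 3 or siI1 replicate 1, 2 or 3.

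Cell division genes formed the largest block of downregulated members. DNA is copied by a helicase (MCM proteins, CDC45 and the GINS complex) and by polymerases and clamp proteins, and most of these genes are switched on by E2F factors as cells enter S phase. Of 67 tested genes of this machinery, 38 (56.7%) were downregulated and 2 upregulated, with a median of -0.24. Among genes with a mean FPKM between 10 and 100, 31.8% were downregulated. GINS2 had FPKM values of 42.9, 45.0 and 37.1 with siC and 21.1, 19.1 and 20.4 with siI1 (log2 fold change -1.04, adjusted p = 0.000318, limma). ORC6, a subunit of the complex that marks origins, had FPKM values of 18.7, 18.4 and 18.9 with siC and 12.6, 12.9 and 12.8 with siI1 (log2 fold change -0.54, adjusted p = 0.000329, limma). All siI1 values of both genes lay below the siC values, and GINS2 had the largest decrease of the list, followed by GINS1 (log2 fold change -0.62). A required absolute log2 fold change of 0.5 left 9 of the downregulated genes, so most of these changes were small. PCNA, the most abundant member, was called at an adjusted p of 0.0355 (limma), and lost the call without siC replicate 2 or 3 or siI1 replicate 1, 2 or 3. CDC7 and GINS4 were the upregulated members, of which 1 was left without siI1 replicate 1 and 0 without siI1 replicate 2 or 3. Nucleotide synthesis was downregulated in 16 and upregulated in 6 of 41 genes (median -0.12). DTYMK, which phosphorylates thymidine monophosphate, had FPKM values of 93.9, 93.3 and 87.1 with siC and 39.8, 41.6 and 38.1 with siI1 (log2 fold change -1.20, adjusted p = 8.46e-05, limma), and thymidine kinase TK1 122, 112 and 112 with siC and 64.2, 65.4 and 64.2 with siI1 (log2 fold change -0.83, adjusted p = 0.000152, limma). The purine and pyrimidine enzymes IMPDH2 and CAD rose (log2 fold change 0.48, adjusted p = 0.0045, limma for CAD).

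Genes of the G1 phase and its control had 14 downregulated and 4 upregulated members of 37 tested (median -0.15), and the downregulated number was 9 without siC replicate 3 or siI1 replicate 1 and 8 without siI1 replicate 2 or 3. CDKN1A, an inhibitor of cyclin-dependent kinases, had FPKM values of 5.98, 6.09 and 5.53 with siC and 0.997, 0.812 and 0.779 with siI1 (log2 fold change -2.64, adjusted p = 8.57e-05, limma), the largest decrease among protein-coding genes with a mean FPKM of at least 1 in either group. MYBL2, a driver of late cell cycle genes, had FPKM values of 213, 191 and 190 with siC and 106, 100 and 103 with siI1 (log2 fold change -0.93, adjusted p = 0.000169, limma). E2F1 and E2F2 were downregulated, with log2 fold changes of -0.75 and -0.91, whereas E2F5 and TFDP2 were upregulated (log2 fold change 0.54, adjusted p = 0.00403, limma for E2F5). An inhibitor and drivers of the cycle thus moved in the same direction. CCND1, CDK4, CDK6 and CDKN1B were not called. BTG2, an antiproliferative gene, had FPKM values of 12.9, 10.6 and 11.3 with siC and 21.5, 20.7 and 22.5 with siI1 (log2 fold change 0.90, adjusted p = 0.000497, limma), opposite to CDKN1A, while MDM2 and BAX were not called. Of 70 DNA repair genes, 15 were downregulated and 6 upregulated (median -0.06). The upregulated number of repair genes was 3 without siC replicate 1 or siI1 replicate 2 and 2 without siC replicate 3, siI1 replicate 1 or siI1 replicate 3.

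Mitosis had the largest number of downregulated genes, with 68 of 118 tested genes downregulated (57.6% against 14.8% of all tested genes), 0 upregulated and a median of -0.30. Among genes with a mean FPKM between 10 and 100, where the median member lies, 31.8% were downregulated. A required absolute log2 fold change of 0.5 left 33 of the downregulated mitotic genes. INCENP, the scaffold of the chromosomal passenger complex, had FPKM values of 22.4, 23.1 and 22.1 with siC and 13.8, 13.2 and 13.7 with siI1 (log2 fold change -0.73, adjusted p = 0.000167, limma). CDC25B, the phosphatase that starts mitosis, had FPKM values of 77.8, 70.5 and 70.4 with siC and 41.4, 42.1 and 41.9 with siI1 (log2 fold change -0.80, adjusted p = 0.000196, limma). UBE2S, which extends ubiquitin chains for the anaphase-promoting complex, was the most abundant member at 334, 308 and 288 with siC and 230, 213 and 219 with siI1 (log2 fold change -0.49, adjusted p = 0.00228, limma). The groups did not overlap in these genes. Members of all parts of mitosis were downregulated, such as the kinases PLK1, AURKA and AURKB, the kinetochore proteins SPC24, ZWINT and CENPW, the motors KIF2C, KIFC1 and KIF20A, the condensin subunits NCAPH and NCAPG and the transcription factor FOXM1. ASPM, CENPE, SMC2 and SMC4 were among the 50 members without a call.

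Promoter sequences of these lists were read from RefSeq (GRCh38.p14, the assembly called hg38, 250 bases before to 50 bases after the annotated start, 300 in all), because nearly all called members of each list moved in the same direction. Promoters were matched by symbol for 57 of the 67 tested DNA replication genes and 95 of the 118 tested mitotic genes. The E2F letters TTTGGCGC or TTTCCCGC were searched on both strands, and were found in 18 of the 57 replication promoters (31.6%), against 2.31% of all 27305 promoters and 3.6% of the 11330 promoters of tested genes. Of the downregulated replication genes, 11 of 33 promoters (33.3%) held them, a share close to that of the whole list. A match describes letters in this window and is no proof of a bound factor. Downregulated replication genes with a match were ranked by p after promoters on a chromosome not printed here had been left out. Genes on that chromosome with a smaller p may therefore be missing. Among the ranked genes, the promoters of the 3 with the smallest p are all from the GINS complex, a part of the replicative helicase. They lie at chr16:85688905-85689204 on the minus strand (GINS2), chr20:25407423-25407722 on the plus strand (GINS1) and chr16:58392221-58392520 on the plus strand (GINS3), and capitals mark the E2F letters, which start at bases -31, 5 and -5 counted from 0 at the start.
GINS2: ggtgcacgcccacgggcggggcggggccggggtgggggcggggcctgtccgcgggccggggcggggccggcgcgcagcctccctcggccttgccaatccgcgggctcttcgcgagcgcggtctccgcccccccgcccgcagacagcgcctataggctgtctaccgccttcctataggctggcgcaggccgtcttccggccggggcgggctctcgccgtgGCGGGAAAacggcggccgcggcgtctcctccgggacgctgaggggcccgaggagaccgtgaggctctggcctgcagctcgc
GINS1: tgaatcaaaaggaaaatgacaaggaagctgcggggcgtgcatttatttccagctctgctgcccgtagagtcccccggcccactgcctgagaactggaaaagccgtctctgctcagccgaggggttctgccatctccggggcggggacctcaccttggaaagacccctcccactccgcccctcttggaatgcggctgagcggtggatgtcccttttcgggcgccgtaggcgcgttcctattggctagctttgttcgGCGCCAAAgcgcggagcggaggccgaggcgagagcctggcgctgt
GINS3: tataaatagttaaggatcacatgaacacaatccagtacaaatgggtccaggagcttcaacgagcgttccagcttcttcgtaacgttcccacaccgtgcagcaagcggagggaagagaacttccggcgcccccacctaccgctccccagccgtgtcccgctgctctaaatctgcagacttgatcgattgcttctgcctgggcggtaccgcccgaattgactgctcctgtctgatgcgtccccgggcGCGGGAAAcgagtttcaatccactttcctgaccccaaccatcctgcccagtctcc

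The cell cycle homology region (CHR, TTTGAA on either strand), a site of the complexes that time late cell cycle genes, was found in 55 of 95 mitotic promoters (57.9%), against 15.4% of all promoters and 9.78% of those of tested genes. In the replication promoters it was found in 3 of 57 (5.26%), and the E2F letters in 6 of 95 mitotic promoters (6.32%) and in 0 of the 51 of downregulated mitotic genes. CCAAT, the letters of the factor NF-Y, was held by 66.3% of the mitotic and 57.9% of the replication promoters, against 35.7% of all promoters. Among the downregulated mitotic genes, 29 of 51 promoters (56.9%) had the CHR letters and 37 (72.5%) CCAAT. The promoters of INCENP, CDC20 and PLK1 are shown with CHR and CCAAT letters in capitals. They were chosen by the smallest p among downregulated genes with both, after the same chromosome as for the replication genes had been left out. They lie on the plus strand at chr11:62123761-62124060, chr1:43358731-43359030 and chr16:23678639-23678938. CDC20 activates the anaphase-promoting complex, and PLK1 is the kinase of mitotic entry.
INCENP: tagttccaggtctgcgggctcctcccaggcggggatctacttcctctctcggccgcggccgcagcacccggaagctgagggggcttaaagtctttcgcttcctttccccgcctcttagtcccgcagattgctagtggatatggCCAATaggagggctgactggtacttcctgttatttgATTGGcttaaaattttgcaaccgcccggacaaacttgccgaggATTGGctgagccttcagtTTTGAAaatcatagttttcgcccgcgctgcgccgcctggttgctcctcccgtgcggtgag
CDC20: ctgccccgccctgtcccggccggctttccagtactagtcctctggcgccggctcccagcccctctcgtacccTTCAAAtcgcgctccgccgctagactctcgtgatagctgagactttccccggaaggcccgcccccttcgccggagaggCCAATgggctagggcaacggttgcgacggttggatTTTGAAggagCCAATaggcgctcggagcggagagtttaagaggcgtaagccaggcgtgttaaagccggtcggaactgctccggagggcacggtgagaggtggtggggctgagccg
PLK1: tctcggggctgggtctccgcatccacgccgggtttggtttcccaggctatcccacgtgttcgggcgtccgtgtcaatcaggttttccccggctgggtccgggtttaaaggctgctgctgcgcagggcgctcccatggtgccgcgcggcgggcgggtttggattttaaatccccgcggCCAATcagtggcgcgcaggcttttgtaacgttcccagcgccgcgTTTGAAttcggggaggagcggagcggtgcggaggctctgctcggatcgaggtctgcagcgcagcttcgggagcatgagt

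Synthesis of cholesterol and fatty acids had the largest downregulated share, 29 of 46 tested genes (63%), with 3 upregulated and a median of -0.32. This share compares with 31.8% of genes with a mean FPKM between 10 and 100. At an absolute log2 fold change of 0.5 or more, 12 downregulated genes were left. The synthesis genes are governed by the sterol-responsive factors SREBF1 and SREBF2, and the list also holds genes outside synthesis, such as ABCA1 and MYLIP. SREBF1 had FPKM values of 15.2, 13.8 and 14.3 with siC and 7.42, 7.40 and 7.51 with siI1 (log2 fold change -0.95, adjusted p = 0.000158, limma), whereas SREBF2 was not called (log2 fold change -0.17). STARD4, a sterol carrier, had FPKM values of 19.7, 21.9 and 22.5 with siC and 11.6, 11.5 and 11.1 with siI1 (log2 fold change -0.90, adjusted p = 0.000226, limma). The isoprenoid enzymes MVK, PMVK, MVD, FDPS and FDFT1, the late sterol enzymes DHCR7 and SC5D and the desaturases FADS1 and SCD were downregulated. HMGCS1 and SQLE were not called. ABCA1, which exports cholesterol, and MYLIP, a ubiquitin ligase, were upregulated, MYLIP with FPKM values of 1.26, 1.24 and 1.51 with siC and 2.20, 2.31 and 2.37 with siI1 (log2 fold change 0.74, adjusted p = 0.00458, limma). ABCA1 lost its call without each of the 6 libraries in turn. The third upregulated member was ELOVL5, and without siC replicate 1, siC replicate 3 or any siI1 replicate the upregulated number was 1.

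Glycolysis was mixed, with 8 downregulated and 6 upregulated of 29 genes (median -0.09, or -0.01 without siC replicate 1). Its downregulated share of 27.6% does not exceed the 31.8% of genes with a mean FPKM between 10 and 100. The counts were 5 downregulated without siC replicate 1, siC replicate 3, siI1 replicate 2 or siI1 replicate 3 and 3 upregulated without siI1 replicate 1 or 2. The isoforms of phosphofructokinase, which commits glucose to the pathway, changed in opposite directions. PFKP had FPKM values of 33.1, 30.7 and 31.6 with siC and 17.7, 14.1 and 16.8 with siI1 (log2 fold change -0.98, adjusted p = 0.000523, limma) and PFKM 43.4, 40.1 and 40.4 with siC and 59.4, 57.4 and 57.0 with siI1 (log2 fold change 0.49, adjusted p = 0.000653, limma). GAPDH, LDHA, PKM and ALDOA were not called. Genes that respond to low oxygen were upregulated in 14 (40%) and downregulated in 3 of 35 (median 0.10). EPAS1, the hypoxia-inducible factor that marks the sympathetic lineage, had FPKM values of 9.10, 8.43 and 9.46 with siC and 14.3, 13.4 and 14.6 with siI1 (log2 fold change 0.65, adjusted p = 0.000756, limma), and HIF1A was upregulated too (log2 fold change 0.47, adjusted p = 0.00213, limma). Of the targets, MXI1 and DDIT4 rose (log2 fold change 0.60, adjusted p = 0.000874, limma for DDIT4), while VEGFA, CA9 and NDRG1 did not pass the test.

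Nuclear genes for the respiratory chain were downregulated in 36 of 83 tested (43.4%, against 31.8% of genes with a mean FPKM between 10 and 100) and upregulated in 0, with a median of -0.19. The downregulated number was 23 without siI1 replicate 2 and 22 without siI1 replicate 3 or without the mean-variance trend. COX4I1, a subunit of cytochrome oxidase, had FPKM values of 143, 143 and 126 with siC and 79.8, 76.7 and 75.6 with siI1 (log2 fold change -0.83, adjusted p = 0.000271, limma). NDUFB6, a subunit of complex I, had FPKM values of 73.8, 75.7 and 71.7 with siC and 52.5, 49.6 and 51.6 with siI1 (log2 fold change -0.52, adjusted p = 0.000381, limma). The most abundant member, the ATP synthase subunit gene ATP5B, changed by less (log2 fold change -0.31, adjusted p = 0.00834, limma). Mitochondrial ribosomal proteins were downregulated in 35 of 78 (44.9%) and upregulated in 2 (median -0.21), and the upregulated number was 1 without siI1 replicate 1, 2 or 3, with MRPL41 at 176, 167 and 155 with siC and 108, 104 and 101 with siI1 (log2 fold change -0.67, adjusted p = 0.000477, limma). The 13 subunits encoded in mitochondrial DNA were listed at 0 in every library and could not be compared. When an absolute log2 fold change of 0.5 or more was required, the downregulated respiratory genes numbered 4 and the mitochondrial ribosomal genes 2, so these changes were small.

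**Figure D3:**
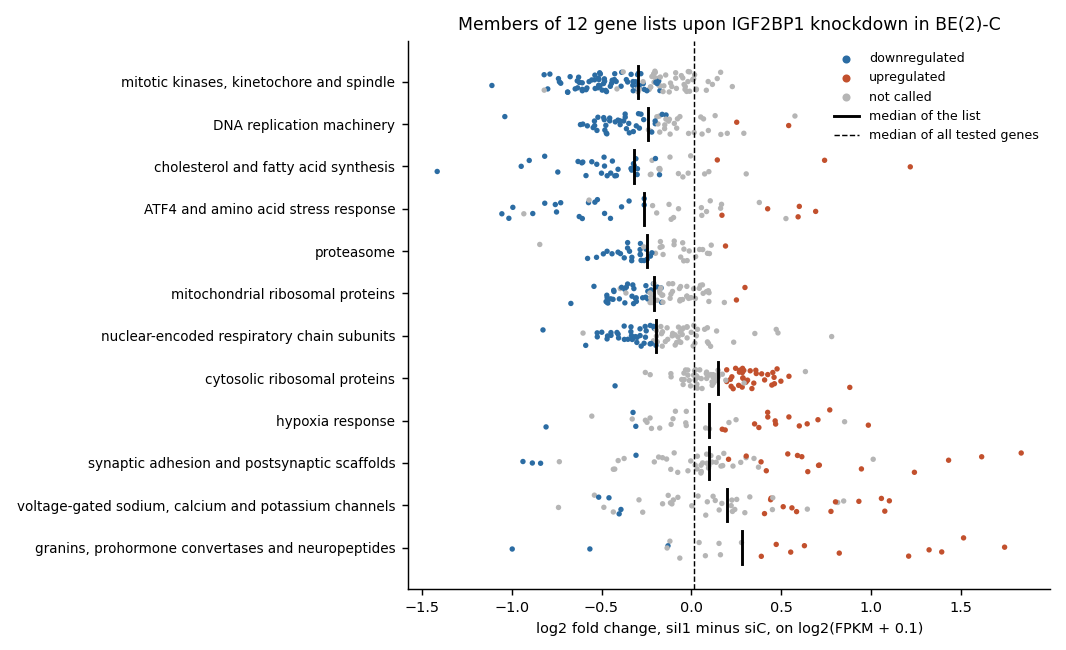
Log2 fold change (siI1 minus siC on log2(FPKM + 0.1)) of each tested member of 12 gene lists, coloured by call, with a bar at the list's median and a dashed line at the median of all tested genes (0.02). The mitotic list has its largest decrease at SPC24 (-1.11) and no upregulated member.

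The cytosolic ribosome moved opposite to the mitochondrial one. Of 84 tested ribosomal protein genes, 35 (41.7%) were upregulated and 1, RPS27L, was downregulated, with a median of 0.15. The upregulated share was 13.3% among all tested genes and 19.5% among those with a mean FPKM from 100 upwards. RPS27L lost its call without siC replicate 2 or 3 or siI1 replicate 2 or 3, and 2 genes were downregulated without siI1 replicate 1. RPL3 had FPKM values of 526, 494 and 500 with siC and 777, 716 and 724 with siI1 (log2 fold change 0.54, adjusted p = 0.000914, limma) and RPL6 341, 354 and 338 with siC and 484, 456 and 470 with siI1 (log2 fold change 0.45, adjusted p = 0.000976, limma), both without overlap. These genes have many processed copies in the genome that share their reads, so single members are uncertain, and 2 upregulated genes were left when the absolute log2 fold change had to reach 0.5. Without the mean-variance trend, 23 were upregulated. Translation factors had 15 upregulated and 11 downregulated members of 58 (median 0.05), and these were 9 upregulated without siI1 replicate 2 and 7 downregulated without siI1 replicate 3. PABPC1, which coats poly-A tails, had FPKM values of 208, 211 and 211 with siC and 316, 311 and 319 with siI1 (log2 fold change 0.59, adjusted p = 0.000228, limma). EIF2B2, a subunit of the exchange factor that recharges eIF2, had FPKM values of 17.2, 16.1 and 17.1 with siC and 10.9, 10.4 and 9.80 with siI1 (log2 fold change -0.69, adjusted p = 0.000421, limma), and the subunit genes EIF2B4 and EIF2B5 were downregulated with it. Ribosome biogenesis genes included 18 downregulated and 7 upregulated of 79 (median -0.06), with IMP3, a processing factor of the small subunit, at 45.9, 43.2 and 39.9 with siC and 26.2, 27.5 and 25.9 with siI1 (log2 fold change -0.69, adjusted p = 0.000486, limma). The upregulated number of this list was 4 without siC replicate 1 or siI1 replicate 3, 2 without siC replicate 3 or siI1 replicate 1 and 0 without siI1 replicate 2, and 1 downregulated gene was left at an absolute log2 fold change of 0.5 or more. Its median was -0.017 with median centring and between -0.063 and -0.009 on leaving out 1 library. The downregulated share of 22.8% does not exceed the 31.8% of genes with a mean FPKM between 10 and 100.

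Genes of the ATF4 pathway, which supplies amino acids under stress, were downregulated in 19 (47.5%) and upregulated in 5 of 40 tested genes, with a median of -0.26. Among genes with a mean FPKM between 10 and 100, 31.8% were downregulated. The upregulated number of the ATF4 list was 3 without any siI1 replicate in turn. ATF4 itself had FPKM values of 236, 224 and 233 with siC and 200, 189 and 189 with siI1 (log2 fold change -0.26, adjusted p = 0.00625, limma). CEBPB, a partner of ATF4, had FPKM values of 33.4, 30.9 and 32.7 with siC and 19.1, 19.3 and 18.8 with siI1 (log2 fold change -0.76, adjusted p = 0.000165, limma). SLC3A2, the heavy chain of amino acid exchangers, had FPKM values of 67.0, 61.6 and 60.6 with siC and 39.0, 37.0 and 36.2 with siI1 (log2 fold change -0.75, adjusted p = 0.000276, limma). Its partner SLC7A5 and the transporters SLC1A4, SLC1A5 and SLC6A9, the enzymes ASNS, PHGDH, PSPH, SHMT2, PYCR1 and PCK2 and the stress genes TRIB3 and DDIT3 were downregulated too. Upregulated members were STC2, DDIT4 and JDP2, and PSAT1, CHAC1 and SLC7A11 were not called. Among aminoacyl-tRNA synthetases, 10 of 39 were downregulated and 5 upregulated (median -0.06), and the upregulated number was 3 without siC replicate 1, 2 without siC replicate 2 or 3 or siI1 replicate 1 and 1 without siI1 replicate 2 or 3. The downregulated share of 25.6% does not exceed the 31.8% of genes with a mean FPKM between 10 and 100. AARS2, the mitochondrial alanyl enzyme, had the largest decrease (log2 fold change -0.78, adjusted p = 0.000263, limma).

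Genes of protein degradation and folding were also downregulated more often than upregulated. Proteasome genes were downregulated in 24 of 46 (52.2%, against 31.8% of genes with a mean FPKM between 10 and 100), with a median of -0.25. PSMB6, a catalytic subunit, had FPKM values of 103, 101 and 101 with siC and 69.7, 66.5 and 68.4 with siI1 (log2 fold change -0.58, adjusted p = 0.000221, limma), and PSMD2, a scaffold of the regulatory particle, 95.2, 89.4 and 88.2 with siC and 68.5, 68.7 and 68.2 with siI1 (log2 fold change -0.41, adjusted p = 0.000929, limma). The only upregulated member was the assembly chaperone PSMD5, which lost its call without each of the libraries in turn, and a required absolute log2 fold change of 0.5 left 2 downregulated genes. Chaperones and quality control of the endoplasmic reticulum had 18 downregulated and 6 upregulated of 62 (median -0.05), with SDF2L1 at 101, 98.5 and 99.0 with siC and 55.1, 56.6 and 51.4 with siI1 (log2 fold change -0.87, adjusted p = 0.000147, limma) and the calcium-binding chaperone gene CALR at 511, 483 and 481 with siC and 375, 354 and 343 with siI1 (log2 fold change -0.46, adjusted p = 0.00144, limma). With median centring, the endoplasmic reticulum list had 10 upregulated genes and a median of -0.012. Heat shock proteins showed 13 downregulated and 4 upregulated of 43 (median -0.04). With 29% and 30.2%, the downregulated shares of these folding lists do not exceed the 31.8% of genes with a mean FPKM between 10 and 100. The heat shock list depends on single libraries, with 8 downregulated without siC replicate 2, 7 without siI1 replicate 1, 6 without siI1 replicate 2, 4 without siI1 replicate 3 and 1 at an absolute log2 fold change of 0.5 or more. Its upregulated number was 2, 0 and 1 without siC replicate 2, siI1 replicate 2 and siI1 replicate 3. In the lysosome, 18 genes were downregulated and 11 upregulated of 72 (median -0.06). GUSB, a glucuronidase, had FPKM values of 25.5, 23.5 and 24.5 with siC and 10.6, 9.32 and 10.0 with siI1 (log2 fold change -1.29, adjusted p = 0.000109, limma), and GAA, the acid glucosidase, 11.8, 9.94 and 11.0 with siC and 21.8, 20.7 and 20.7 with siI1 (log2 fold change 0.94, adjusted p = 0.000298, limma). The upregulated number was 7 without siC replicate 3 or siI1 replicate 3.

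**Figure D4:**
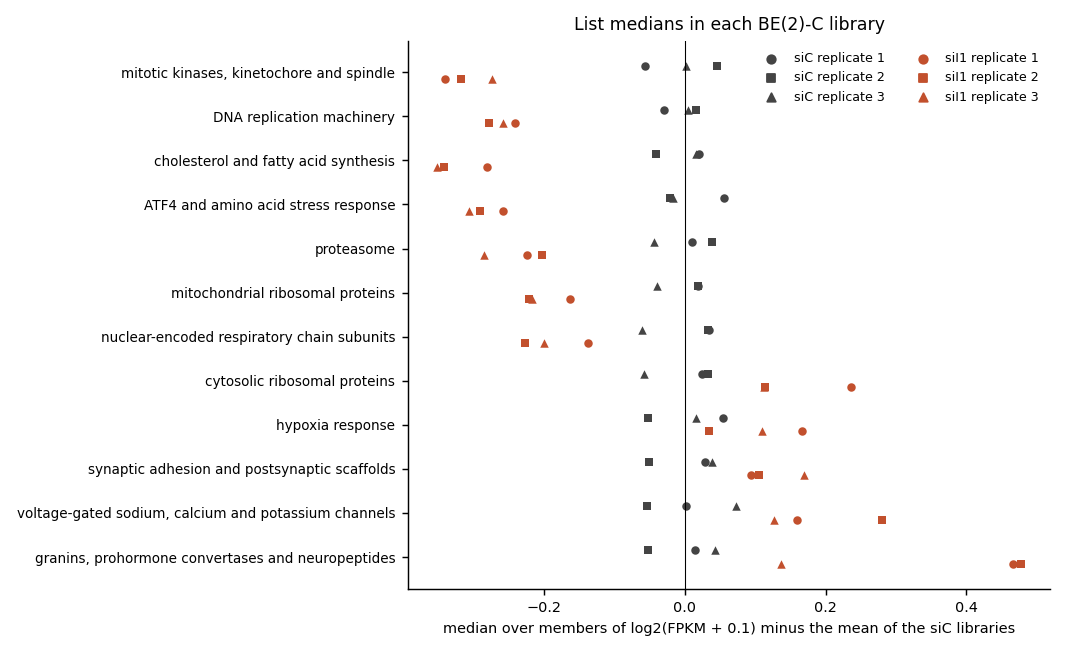
Median over the members of each of 12 gene lists of log2(FPKM + 0.1) minus the mean of the siC libraries, for each siC (dark grey) and siI1 (orange-red) library. From mitotic genes to respiratory chain subunits, every siI1 library lies below every siC library. In the other lists the siI1 libraries lie above them, except for hypoxia genes, where siI1 replicate 2 (0.03) lies below siC replicate 1 (0.05).

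Apoptosis regulators of the BCL2 family showed 4 downregulated and 3 upregulated of 18 genes (median 0.02, a sign that turns with a filter at FPKM 1). Both directions held genes that favour cell death. BAD, a BH3-only protein, had FPKM values of 26.1, 22.5 and 24.3 with siC and 12.8, 11.9 and 13.1 with siI1 (log2 fold change -0.94, adjusted p = 0.000285, limma). BCL2L11, another BH3-only protein, had FPKM values of 2.97, 2.96 and 2.90 with siC and 5.80, 5.42 and 5.89 with siI1 (log2 fold change 0.93, adjusted p = 0.000306, limma), and BOK, an effector of the BAX type, 0.550, 0.587 and 0.673 with siC and 2.29, 2.103 and 2.19 with siI1 (log2 fold change 1.71, adjusted p = 0.000342, limma). BCL2, MCL1 and BCL2L1, which protect cells, were not called. Antioxidant genes were downregulated in 10 and upregulated in 4 of 41 (median -0.09). Their downregulated share of 24.4% does not exceed the 31.8% of genes with a mean FPKM between 10 and 100. TXNRD1, a thioredoxin reductase, was at 33.3, 37.1 and 38.0 with siC and 23.6, 24.5 and 26.1 with siI1 (log2 fold change -0.54, adjusted p = 0.00149, limma). AKR1C1, a ketosteroid reductase with close paralogues, was at 0.962, 0.846 and 1.04 with siC and 4.99, 4.54 and 4.39 with siI1 (log2 fold change 2.18, adjusted p = 0.000138, limma).

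Regulators of chromatin changed in both directions. Of 56 genes of Polycomb, trithorax and DNA methylation, 10 were downregulated and 12 upregulated (median -0.05), and the upregulated number was 7 without siC replicate 2 and 5 without siI1 replicate 2. CBX6, a chromobox reader of Polycomb marks, had FPKM values of 42.8, 39.9 and 41.7 with siC and 16.4, 16.7 and 16.1 with siI1 (log2 fold change -1.33, adjusted p = 3.18e-05, limma), and SCML2, another Polycomb protein, 5.52, 5.85 and 6.04 with siC and 2.25, 2.74 and 2.96 with siI1 (log2 fold change -1.11, adjusted p = 0.000785, limma). The methyltransferases KMT2C and DNMT3A were upregulated (log2 fold change 0.71, adjusted p = 0.00164, limma for KMT2C), and EZH2, SUZ12 and KDM1A were not called. Processing and action of microRNAs, including the let-7 axis, had 6 upregulated members of 31 (median 0.07) and no downregulated member besides IGF2BP1 itself. The downregulated number, IGF2BP1 included, was 2 without siI1 replicate 1, with equal sums of FPKM or without trend, 3 with a filter at FPKM 1 and 4 with voom, so the lack of other downregulated members depends on the setting. TNRC6C, which recruits the silencing machinery to Argonaute proteins, had FPKM values of 2.49, 2.30 and 2.43 with siC and 4.63, 4.62 and 4.76 with siI1 (log2 fold change 0.93, adjusted p = 0.000365, limma), and DICER1, XPO5, CNOT6, PAN3 and IGF2BP3 were the other upregulated members. LIN28B, AGO1 and AGO2 were not called. Among the writers, erasers and readers of m6A, the methyl mark that IGF2BP proteins can recognise, 4 of 18 genes were downregulated and 2 upregulated (median 0.04, a sign that turns without siC replicate 1). The downregulated number was 2 without siI1 replicate 1 or 2 and 1 without siI1 replicate 3. FTO, a demethylase, had FPKM values of 3.85, 3.74 and 3.24 with siC and 2.08, 2.05 and 2.00 with siI1 (log2 fold change -0.79, adjusted p = 0.00166, limma), while the upregulated readers were YTHDF2, which lost its call without each of the 6 libraries in turn, and YTHDF3, which kept it only without siC replicate 3.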

How the data were processed

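The deposited BE(2)-C table holds FPKM values, which the authors computed from featureCounts reads per gene and gene length after TMM scaling in edgeR. FPKM times length, divided by 1 value per library estimated from the table, gives whole numbers for every gene within 0.01 reads. These reads were used for depth and for the alternative fit on reads only. Upstream tools named by the authors were cutadapt 1.14, HISAT2 2.1.0, SAMtools 1.5, featureCounts 1.5.3 and edgeR 3.30.3 on hg38 with Ensembl genes. The table also holds comparison columns of the authors (log2 ratios of siI1 to siC with their p values and FDR), which were not used.

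Genes that reached an FPKM of 0.1 in 3 or more libraries were tested on log2(FPKM + 0.1) by limma 3.58.1 with a mean-variance trend (R 4.3.3), siI1 minus siC, with Benjamini-Hochberg adjustment over 18656 genes and a call at an adjusted p below 0.05. Tables and figures were made with Python 3.11.15, pandas 2.3.3, numpy 2.4.6 and matplotlib 3.10.9. Alternatives changed the added constant, the filter, the trend, the scaling, the test (voom on reads), the cut-offs and the libraries, each left out in turn. Replicate numbers did not pair the libraries of the groups, so the main fit had no replicate term. Such a term was fitted only as an alternative.

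The 53 gene lists with tested members are summarised by counts of calls and by the median log2 fold change beside the same over all tested genes. Members and lists were chosen with earlier results of these data known. Genes named with values were drawn from a rule: the IGF2BP family, in each direction the 10 protein-coding genes with the largest called change at a mean FPKM of at least 1 in either group, per list the 2 called genes with the smallest p in each direction and the most abundant gene, and all members of lists with at most 16 tested genes. Any other gene named, singly or in a listing of members, was chosen after its values were seen. Many genes under this rule, and 1 list, are not reported here. Members listed without a value kept their call without each library in turn, unless a loss is given. Promoters were taken from RefSeq starts on GRCh38.p14, and coordinates from GENCODE v44 on hg38.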

Additional observations from a re-analysis of the deposited data

How the results depend on the processing

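No named call turned to the opposite direction in any setting. An adjusted p below 0.01 (limma) left 1475 downregulated and 1139 upregulated genes, and a minimum absolute log2 fold change of 0.5 left 1247 and 1344. Leaving out 1 library at a time gave 1895 to 2316 downregulated and 1519 to 2103 upregulated genes. Median centring gave 2390 and 2870, with an overall median of 0.05, so that the larger number lies on the upregulated side under this scaling, and equal sums of FPKM gave 2605 and 2586. No trend gave 2203 and 2214, and voom on reads 3329 and 3201. A constant of 0.01 gave 2727 and 2396, a constant of 1 gave 2768 and 2497, a filter at FPKM 1 gave 2829 and 2281 among 12337 genes, and no filter gave 2343 and 2070 among 27674. With a replicate term 2531 and 2141 genes were called, but same-number residuals correlated at 0.023, -0.01 and -0.003, which gives no support for pairing. Of 106 list counts, 57 moved more than 1.5-fold at an adjusted p below 0.01, 71 at the minimum fold change, 21 without trend, 18 with voom, 12, 13 and 15 without siC replicate 1, 2 and 3 and 24, 30 and 31 without siI1 replicate 1, 2 and 3. Of 53 list medians, 21 moved by more than the spread between replicates under median centring, 16 with a filter at FPKM 1, 15 without filter and 5 to 12 on leaving out 1 library.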

Other observations

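Genes with large changes belong to several functions. SLC12A3, a sodium chloride cotransporter, had FPKM values of 0.203, 0.0884 and 0.0926 with siC and 2.17, 2.02 and 1.61 with siI1 (log2 fold change 3.18, adjusted p = 0.000368, limma). NEDD9, a scaffold of focal adhesions, had FPKM values of 0.161, 0.0452 and 0.138 with siC and 1.26, 0.901 and 1.00 with siI1 (log2 fold change 2.46, adjusted p = 0.00154, limma). S100A10, a partner of annexin A2, had FPKM values of 3.39, 3.23 and 4.26 with siC and 0.797, 0.550 and 1.17 with siI1 (log2 fold change -2.03, adjusted p = 0.00164, limma), and TNNT2, the cardiac troponin T, 1.15, 1.29 and 1.35 with siC and 0.223, 0.312 and 0.179 with siI1 (log2 fold change -2.03, adjusted p = 0.000927, limma). In all 4 genes the groups did not overlap. Interferon and double-stranded RNA response genes had 3 downregulated and 4 upregulated of 26 (median -0.07, a sign that turns without the filter or with a filter at FPKM 1), with OAS3, a sensor of double-stranded RNA, at 17.5, 16.9 and 18.4 with siC and 11.1, 11.3 and 10.5 with siI1 (log2 fold change -0.68, adjusted p = 0.000365, limma). Of 11 genes of antigen presentation, ERAP1 was upregulated and none downregulated, and ERAP1 lost its call without siI1 replicate 1 or 3.

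The nicotinic receptor genes on chromosome 15 lie near CRABP1, a neighbourhood chosen after its values were seen. Of the 11 tested genes from CRABP1 to CHRNB4, 5 were downregulated (CRABP1, CHRNA5, CHRNA3, CHRNB4 and the antisense gene AC027228.2), against 14.8% of all tested genes, and 6 were not called, among them IREB2, HYKK and PSMA4, which lie between CRABP1 and CHRNA5. AC011270.2, which begins before CRABP1 and overlaps it, was downregulated too (log2 fold change -0.89, adjusted p = 0.0313, limma). AC027228.2 lies within CHRNA5 (chr15:78565520-78595269) on the opposite strand, so its value is uncertain as well. AC022748.2, which was not called, overlaps CHRNB4 on the opposite strand, so the same holds for CHRNB4. A cause was not tested.

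All 37 genes of mitochondrial DNA were listed at 0 in every library, so nothing can be said of them. The gene with the most reads was EEF1A1, with 0.846% to 1.05% of reads.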
